A study of Homo sapiens with 4 samples.

Results

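The 14-3-3 family comprises small acidic proteins that work as dimers and bind other proteins at phosphorylated serine or threonine. Its 7 human genes are YWHAB (beta), YWHAE (epsilon), YWHAG (gamma), YWHAH (eta), YWHAQ (theta), YWHAZ (zeta) and SFN (sigma, or stratifin). All 7 were found by symbol among 12189 genes listed for SiHa and among 12036 listed for MS751. The family was chosen by measured values of the knockdown itself, namely opposite differences of YWHAB in the lines and a lower SFN count in MS751. Differences between siDDX24-1 and siControl are therefore given as a description, with no test.

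SiHa and MS751 are established human lines that the labels class as squamous carcinoma of the cervix. Each was transfected with siDDX24-1, a small interfering RNA against the helicase gene DDX24 (genotype "DDX24 knockdown"), or with siControl (genotype "WT"). RNA was taken on day 2, and there was 1 library per line and siRNA, so that no difference within a line has a replicate check. The knockdown rests on a single siRNA, and the labels do not say what siControl targets. Counts summed to between 13159701 and 20116334 per library over the listed genes. DDX24 had 575 counts with siDDX24-1 and 3464 with siControl in SiHa (log2 fold -2.71). In MS751 DDX24 had 993 counts with siDDX24-1 and 2072 with siControl (log2 fold -1.20), so its remaining level differed between the lines.

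Cell type markers separated the lines, which bears on every value that sets SiHa against MS751. Those of MS751 fit its label as a squamous carcinoma poorly, and basal squamous markers were missing from SiHa too. Of 10 epithelial and squamous markers, 6 were listed for SiHa and 3 for MS751. The basal squamous markers KRT5, KRT6A, KRT14 and TP63 were listed for neither line, and KRT17, KRT19 and CDH1 for SiHa alone. KRT8, a keratin of simple epithelia, had 27714 and 28824 counts in SiHa, against 320 and 413 in MS751 (siDDX24-1 before siControl in each line). KRT18 had 10874 and 10850 counts in SiHa, against 1859 and 1126 in MS751, and EPCAM 361 and 233 against 156 and 154. Of the 5 stratified epithelium genes listed for MS751, DSP alone was higher there, at 163 and 166 CPM (counts scaled to library size). In SiHa DSP was at 140 and 124 CPM. COL3A1, a collagen of connective tissue, had 6944 and 4789 counts in MS751, against 43 and 57 in SiHa. Of 8 fibroblast markers, 5 were listed for MS751 and 3 for SiHa, with PDGFRB for SiHa alone. Their summed level was 513 and 460 CPM in MS751, against 10.8 and 21.3 CPM in SiHa. Most of the MS751 sum was COL3A1 itself, at 476 and 362 CPM. THY1 was at 9.11 and 8.17 CPM there, COL1A2 at 3.29 and 2.42 CPM and LUM at 1.2 and 1.1 CPM. Of 10 leukocyte markers 2 were listed for SiHa and 1 for MS751, and of 8 endothelial markers 1 and 0. The leukocyte marker CD14 had 4625 and 3845 counts in SiHa. Between siRNAs, no gene of these 3 marker lists (epithelial, leukocyte and endothelial) was past 2-fold in either line. The collagen gene COL1A1 was at least 2-fold lower with siDDX24-1 in both lines, at 149 counts against 306 in SiHa and 346 against 1139 in MS751. With a trend on GC content removed, its log2 fold was -0.92 in SiHa, under 2-fold, and -1.46 in MS751. The part of these markers in the values below was not tested.

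14-3-3 proteins hold phosphorylated clients in the cytoplasm, hold kinases in an inactive or active shape, and mask signals for transport or degradation. The clients include the CDC25 phosphatases of the cell cycle, the death factor BAD, FOXO transcription factors, YAP1 and class IIa histone deacetylases. SFN is largely an epithelial gene. Its protein was described as keeping the mitotic CDK1 and cyclin B complex out of the nucleus after DNA damage.

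YWHAB and SFN carry most of what follows, so their promoters are printed (RefSeq, GRCh38.p14, plus strand, from 250 bases before to 50 after the annotated start, 5′ to 3′). YWHAB lies on chromosome 20 from 44885676 to 44908532 and SFN on chromosome 1 from 26863138 to 26864457, both on the plus strand (GENCODE release 29). The windows are chr20:44885455-44885754 for YWHAB and chr1:26862899-26863198 for SFN. Capitals mark any match, on either strand, to the GC box GGGCGG, the CCAAT box CCAAT, the TATA box TATAAA, the ETS motif CGGAAGT or the CRE motif TGACGTCA.
YWHAB: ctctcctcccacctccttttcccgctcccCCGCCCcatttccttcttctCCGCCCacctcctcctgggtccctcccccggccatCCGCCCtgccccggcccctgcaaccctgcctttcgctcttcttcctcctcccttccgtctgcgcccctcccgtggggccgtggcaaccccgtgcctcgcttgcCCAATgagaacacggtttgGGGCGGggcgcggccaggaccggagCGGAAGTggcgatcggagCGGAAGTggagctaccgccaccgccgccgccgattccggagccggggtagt
SFN: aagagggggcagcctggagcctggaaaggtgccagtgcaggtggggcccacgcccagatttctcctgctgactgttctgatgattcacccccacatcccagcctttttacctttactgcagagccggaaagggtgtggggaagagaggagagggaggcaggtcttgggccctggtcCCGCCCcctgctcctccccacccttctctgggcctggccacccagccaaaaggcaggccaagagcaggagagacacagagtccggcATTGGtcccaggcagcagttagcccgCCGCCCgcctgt

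The YWHAB window holds 4 GC boxes, 1 CCAAT box and 2 ETS motifs, and the SFN window 2 GC boxes and 1 CCAAT box. Of 35116 windows of this length in the RefSeq table, 45% hold a GC box, 34.6% a CCAAT box, 6.83% the ETS motif, 11.5% the TATA box and 1.85% the CRE motif. Among the members with a window, the TATA box and the CRE motif were found in YWHAH alone, with 1 match each. The windows of YWHAB and SFN differ in CpG dinucleotides, the sites of DNA methylation. SFN has 7 CpG, YWHAB has 29, and the windows of YWHAE, YWHAG, YWHAH and YWHAQ have 32 to 44. The median over all windows is 14, and 36.8% of them have fewer than SFN. No window was given for YWHAZ. These matches describe the letters and say nothing of binding.

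YWHAB encodes the beta protein. It had 4168 counts with siDDX24-1 and 9015 with siControl in SiHa, and 5451 with siDDX24-1 and 2258 with siControl in MS751. On the CPM scale these levels were 212 with siDDX24-1 and 498 with siControl in SiHa, against 373 with siDDX24-1 and 171 with siControl in MS751. The siDDX24-1 library was thus the lower one in SiHa and the higher one in MS751. Folds are siDDX24-1 over siControl, and the intervals given with them are exact conditional 95% intervals that cover counting error only. The log2 fold of YWHAB was -1.24 in SiHa (interval -1.29 to -1.18). For MS751 it was 1.13 (interval 1.06 to 1.20). In bulk RNA a change in the mix of cells and a change per cell cannot be told apart.

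**Figure D1:**
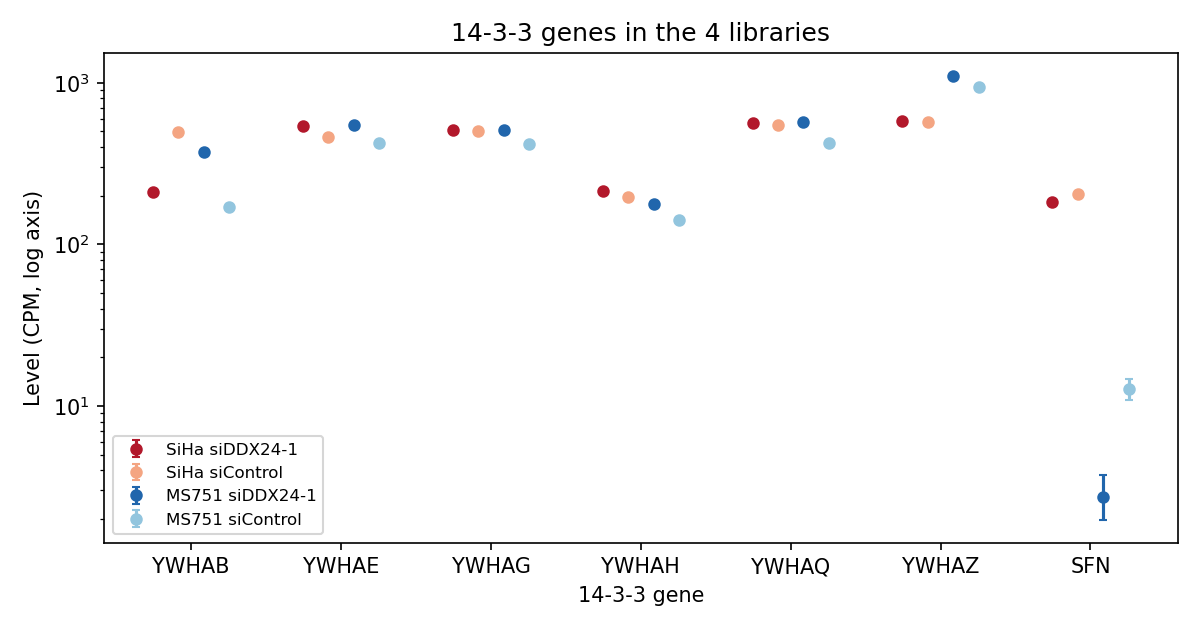
Level of each 14-3-3 gene in the 4 libraries, in CPM on a log axis, with exact Poisson 95% intervals of the count. YWHAB is low in SiHa siDDX24-1 and in MS751 siControl, and SFN is at 2.74 and 12.7 CPM in the MS751 libraries (siDDX24-1, then siControl), against 182 and 206 CPM in the SiHa libraries.

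YWHAB was the 1 member of 7 at least 2-fold lower in SiHa, where 3.05% of all genes were, and none was at least 2-fold higher, where 1.46% of all genes were. In MS751 YWHAB was the 1 member at least 2-fold higher, against 3.74% of all genes, and SFN the 1 at least 2-fold lower, against 8.55%. With the GC trend removed, YWHAB in MS751 was at a log2 fold of 0.99, just under 2-fold, and no member was then past 2-fold higher. These counts restate how the family was chosen. Of 12189 genes in SiHa, 185 had a lower fold than YWHAB, and of 12036 in MS751, 310 had a higher one. Across the 11112 genes listed for both lines, 15 including YWHAB were at least 2-fold lower in SiHa and at least 2-fold higher in MS751. Another 12 genes had the opposite pair of directions.

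**Figure D2:**
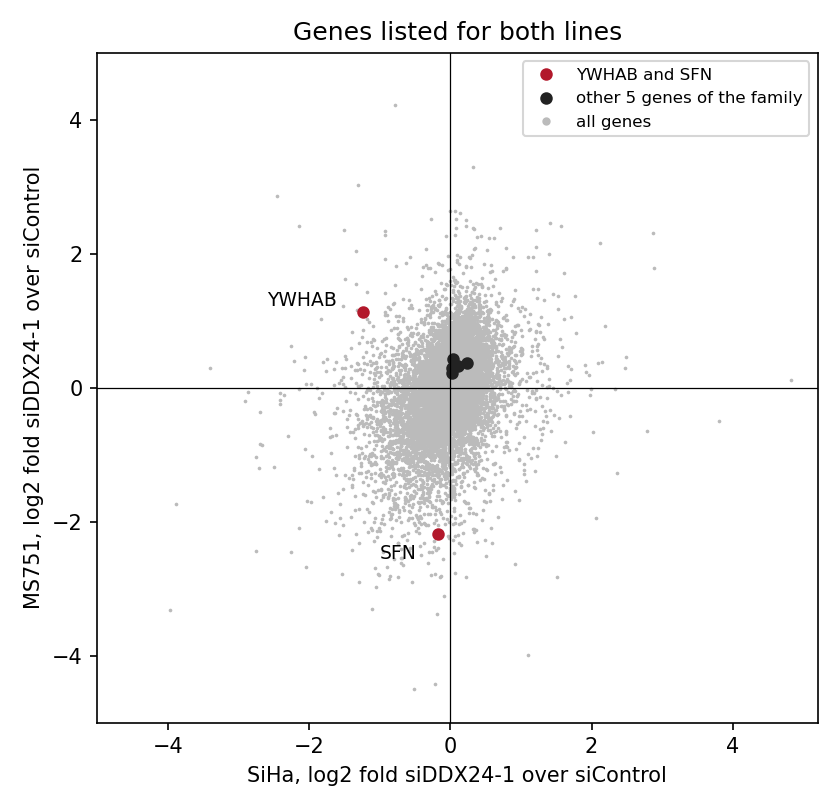
log2 fold of siDDX24-1 over siControl in SiHa (horizontal) and in MS751 (vertical) for the 11112 genes listed for both lines, with the 14-3-3 genes drawn larger. YWHAB lies at -1.24 and 1.13, SFN at -0.18 and -2.18, and the other 5 genes lie between 0.022 and 0.24 in SiHa and between 0.23 and 0.43 in MS751.

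The genes whose profile lay nearest to that of YWHAB were sought among 10653 genes that averaged 5 CPM or more. The measure was the Euclidean distance between log2 CPM values of the 4 libraries, each gene centred on its own mean. TMEM33, which encodes a membrane protein of the endoplasmic reticulum, was nearest (distance 0.062, against a median of 1.46 over all genes searched). TMEM33 had 614 counts with siDDX24-1 and 1408 with siControl in SiHa, and 836 with siDDX24-1 and 339 with siControl in MS751. Next came VAPB, a protein that tethers the endoplasmic reticulum to other membranes (0.086), the DNA glycosylase gene TDG (0.25), the selenoprotein gene SELENOF (0.31) and the apoptosis inhibitor gene API5 (0.32). The log2 folds of these 5 genes lay between -1.52 and -1.18 in SiHa and between 1.03 and 1.44 in MS751. With 4 libraries such a match is a description of shape alone.

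Of the 3 genes beside YWHAB on chromosome 20 that were listed for both lines, 2 had its pair of signs at a smaller size. None was past 2-fold in SiHa, and in MS751 PABPC1L was past 2-fold lower, opposite to YWHAB. PABPC1L, a poly(A)-binding protein gene 1.53 kb downstream, was at a log2 fold of -0.40 in SiHa, with an interval of -0.65 to -0.15. For MS751 its log2 fold was -1.06, with an interval of -1.31 to -0.83. TOMM34, which encodes a cochaperone of mitochondrial import, was at -0.094 in SiHa (interval -0.15 to -0.033), and in MS751 at 0.67 (interval 0.56 to 0.78). RIMS4, upstream of YWHAB, was at -0.17 in SiHa and at 0.063 in MS751, where its interval spanned 0. Exons of YWHAB overlap those of no other annotated gene. None of its 50-base stretches occurs in the transcripts of another gene in GENCODE release 29, so reads of another annotated transcript would not match it exactly over that length.

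SFN is the member made mainly by epithelia. It had 3583 counts with siDDX24-1 and 3726 with siControl in SiHa, and 40 with siDDX24-1 and 168 with siControl in MS751. Both MS751 libraries lay far below both SiHa libraries. The log2 fold of SFN in MS751 was -2.18 (interval -2.75 to -1.71), which is 4.55-fold lower, and 99 of 12036 genes had a lower fold. In SiHa the log2 fold was -0.18 (interval -0.25 to -0.11). Transcripts of SFN are GC-rich (62.8%, against a median of 48.5% over the listed genes in either line). GC-rich genes were lower in both knockdown libraries (Spearman's rho of fold and GC content across genes -0.33 in SiHa and -0.36 in MS751, genes not being independent). Once a smooth GC trend was taken out, SFN was at 0.095 in SiHa, the opposite sign, and at -1.71 in MS751.

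The other 5 genes had small differences in SiHa. YWHAE, whose product binds CDC25 phosphatases, had 10708 counts with siDDX24-1 and 8337 with siControl, the largest of the 5 folds (log2 fold 0.24, interval 0.20 to 0.28). YWHAH was at 0.11 (interval 0.044 to 0.17). YWHAQ was at 0.038, YWHAG at 0.022 and YWHAZ at 0.022, and each of these 3 counting intervals spanned 0. Those 3 folds turned below 0 when library totals replaced the TMM scaling and when the GC trend was removed.

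In MS751 the same 5 genes were higher with siDDX24-1, and all 5 counting intervals lay above 0. Such intervals are narrow at high counts, and the share of all genes with an interval above 0 was not counted. Of 12036 genes, 2583 had a higher fold than YWHAQ, the highest of the 5, and 4113 a higher one than YWHAZ, the lowest. YWHAQ, the theta gene, had 8335 counts with siDDX24-1 and 5602 with siControl (log2 fold 0.43, interval 0.38 to 0.48). YWHAE had 7969 counts with siDDX24-1 and 5589 with siControl (log2 fold 0.37). The log2 folds of YWHAH, YWHAG and YWHAZ were 0.33, 0.29 and 0.23. The median over all genes was -0.0041 in SiHa and 0.00081 in MS751, and 49.6% and 50% of genes had a fold above 0. With the GC trend removed, the 5 genes stayed above 0 in MS751, between 0.055 for YWHAZ and 0.33 for YWHAH.

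**Figure D3:**
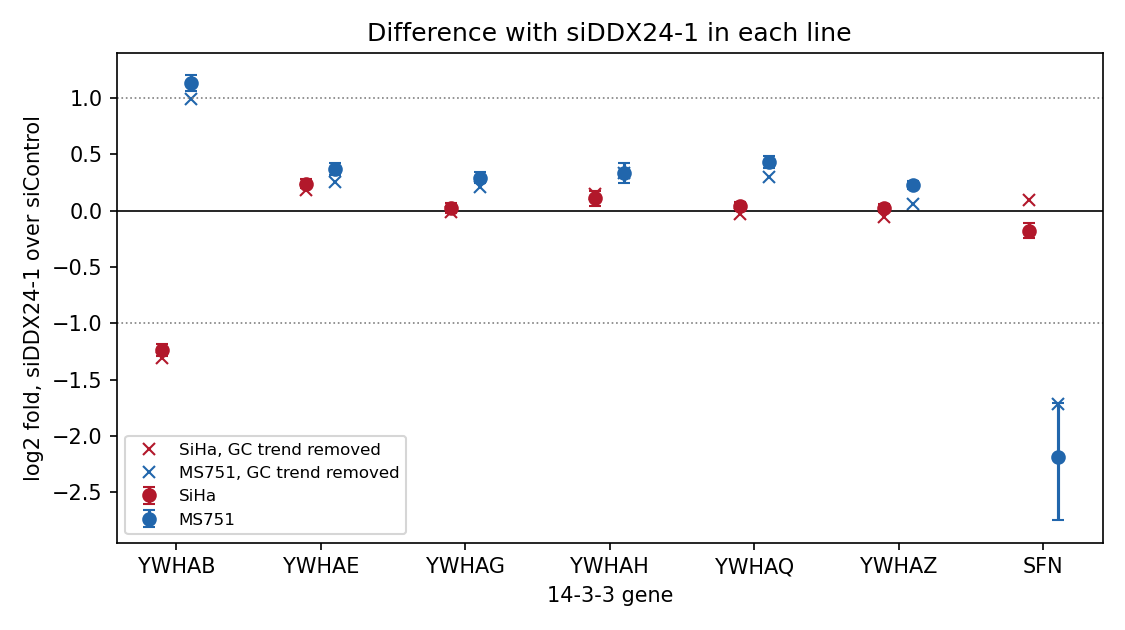
log2 fold of siDDX24-1 over siControl for each 14-3-3 gene in SiHa (red) and MS751 (blue), with exact conditional 95% intervals covering counting error only. Crosses give the fold with the GC trend removed, dotted lines mark 2-fold, and YWHAB is the gene past 2-fold in opposite directions.

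YWHAZ, YWHAE, YWHAQ, YWHAG and YWHAH sit on chromosomes 8, 17, 2, 7 and 22, so that no pair of the 7 genes shares a chromosome. YWHAH exons share 105 bases (4.28% of their length) with another protein-coding gene, ENSG00000285404. Of the 50-base stretches of YWHAZ transcripts, 7.63% also occur in transcripts of other genes, mostly processed pseudogenes such as YWHAZP3, and 2.22% of its 100-base stretches do. For YWHAE, YWHAH and YWHAQ the shares at 50 bases were 2.88%, 2.24% and 1.73%, and for YWHAG and SFN 0%. No 50-base stretch is shared between members, although their coding sequences are 62% (YWHAE and SFN) to 78.8% (YWHAG and YWHAH) identical in aligned bases. Counts of YWHAZ are thus less certain than those of YWHAB, since no source used here says how reads with several matches were handled.

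Levels of different genes were compared per kilobase of exon (CPM divided by the merged exon length). YWHAQ was the highest member in each of the 4 libraries, at 209 with siDDX24-1 and 203 with siControl in SiHa, and at 211 with siDDX24-1 and 156 with siControl in MS751. In SiHa siDDX24-1, YWHAE (141), SFN (138) and YWHAG (137) followed with overlapping counting intervals, then YWHAH (86.7), YWHAZ (67.7) and YWHAB (26.7). In SiHa siControl the order was YWHAQ, SFN (156), YWHAG (134), YWHAE (120), YWHAH (80.4), YWHAZ (66.7) and YWHAB (62.8), and no neighbouring intervals overlapped. In MS751 siDDX24-1, YWHAE (142) and YWHAG (136) overlapped, and YWHAZ (128), YWHAH (72.7), YWHAB (47.1) and SFN (2.08) followed. In MS751 siControl, YWHAG (111), YWHAE (110) and YWHAZ (109) overlapped, ahead of YWHAH (57.8), YWHAB (21.5) and SFN (9.63). With the length of the longest transcript instead, YWHAE and YWHAQ together led, at 19.9% to 25.5% of the family each. In SiHa siControl YWHAE was then at 19.9% and SFN at 14.9%. By counts with no length YWHAZ was the highest member in each of the 4 libraries, at 19.1% to 37.1% of the family counts. The intervals above cover counting error only, so the order of members depends on the length used.

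Shares of the summed family level restate the YWHAB and SFN differences without any scaling between libraries. YWHAB made up 3.31% of the family with siDDX24-1 and 7.63% with siControl in SiHa, and 6.37% with siDDX24-1 and 3.74% with siControl in MS751. SFN made up 17.1% with siDDX24-1 and 18.9% with siControl in SiHa, against 0.281% with siDDX24-1 and 1.67% with siControl in MS751. The summed level was 806 CPM per kilobase with siDDX24-1 and 824 with siControl in SiHa (log2 fold -0.032). In MS751 it was 739 with siDDX24-1 and 576 with siControl (log2 fold 0.36). Without YWHAB these folds were 0.034 and 0.32, and without SFN 0.00057 and 0.38, so the SiHa sum has no stable sign. Apart from SFN in MS751, the members ranked high in their libraries, above 81.4% to 99.1% of listed genes per kilobase, while SFN in MS751 ranked above 20% with siDDX24-1 and 60.6% with siControl.

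**Figure D4:**
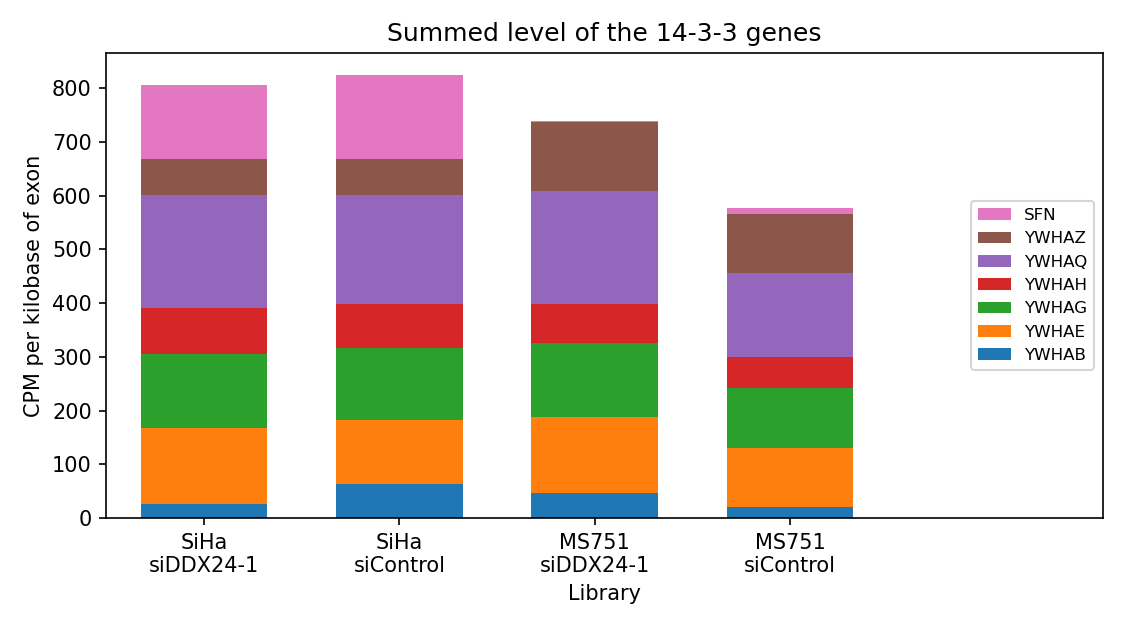
Summed level of the 14-3-3 genes in each library, in CPM per kilobase of exon, with 1 colour per gene. The bars reach 806 and 824 in SiHa and 739 and 576 in MS751 (siDDX24-1, then siControl), and the SFN segment is barely visible in MS751.

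The difference between the lines was not itself used to choose the family and was tested. It was fitted over all 4 libraries (2 per line) with siRNA as an additive term, by edgeR's quasi-likelihood test with Benjamini-Hochberg adjustment over 11112 genes. The labels give no repeat cultures within a line and siRNA. The error behind the p-values is therefore the unequal difference between the siRNAs in the 2 lines, not a spread among repeats. SFN was higher in SiHa by a log2 fold of 5.03 ± 0.49 (SE), which is 32.7-fold, with an adjusted p of 0.000346 in edgeR. It was higher in 2 of 2 pairs of libraries with the same siRNA, by 6.12 with siDDX24-1 and 4.10 with siControl. The lower SFN count in MS751 with siDDX24-1 was used to choose the family. That count enters both the fitted SFN difference and its error, so the adjusted p of SFN is not independent of the choice. The lines also differed in KRT17, KRT19 and CDH1, listed for SiHa alone, and in COL3A1. The part of these other epithelial and connective tissue genes in the SFN difference was not tested.

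YWHAZ was lower in SiHa by the same edgeR test, with a log2 difference of -0.72 ± 0.21 (SE) and an adjusted p of 0.0338. Its levels were 616 CPM with siDDX24-1 and 611 CPM with siControl in SiHa, against 1088 and 945 CPM in MS751 (scaled over the 4 libraries), lower in 2 of 2 pairs. These were the 2 members of 7 that passed at an adjusted p of 0.05, 1 in each direction, against 17.9% of all genes higher in SiHa and 17.6% lower. The YWHAZ call was lost when a SiHa library was left out and the siRNA term dropped, although its log2 difference stayed at -0.73 without the siDDX24-1 library and -0.74 without the siControl library. Its adjusted p in edgeR was then 0.286 without the siDDX24-1 library of SiHa and 0.253 without the siControl library of SiHa. Those fits called 568 and 460 genes higher in SiHa and 433 and 479 lower. With all 4 libraries and no siRNA term, 1359 genes were called higher and 1322 lower, against 1984 and 1957 with that term. For SFN the log2 difference was 4.83 without the siDDX24-1 library of SiHa and 4.62 without the siControl library of SiHa. Both fits reuse the SFN count that was used to choose the family.

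The remaining 5 members did not pass in edgeR, which does not show that the lines were alike in them. YWHAH came nearest, with a log2 difference of 0.46 ± 0.20 (SE) and an adjusted p of 0.118 in edgeR. YWHAQ was at 0.28 ± 0.22, YWHAG at 0.23 ± 0.21 and YWHAE at 0.15 ± 0.21 (SE), each above 0 in both pairs of libraries. YWHAB was at 0.46 ± 0.51 (SE). With 1 library per line and siRNA, the error of this fit is the unequal difference between the siRNAs in the 2 lines. For YWHAB that was used to choose the family, so its wide error and missed call are no finding. Its difference between the lines was -0.72 among siDDX24-1 libraries and 1.63 among siControl libraries. The line with more YWHAB transcript was therefore MS751 with siDDX24-1 and SiHa with siControl.

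**Figure D5:**
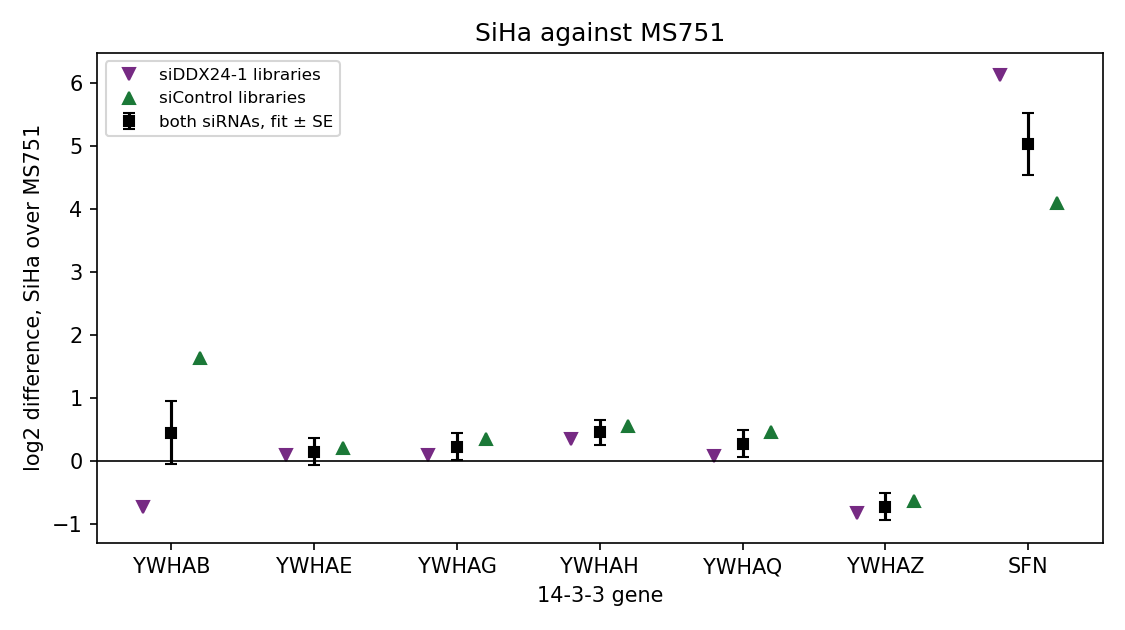
log2 difference of SiHa over MS751 for each 14-3-3 gene. Squares give the fit over both siRNAs with its SE, and triangles the siDDX24-1 and siControl libraries taken alone. SFN lies at 5.03 and YWHAZ at -0.72, and the triangles of YWHAB fall on opposite sides of 0.

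Genes with a profile like that of SFN were sought in the same way as for YWHAB. The hypoxia-induced carbonic anhydrase gene CA9 was nearest (distance 0.34, against a median of 5.37 over all genes searched). CA9 had 1994 counts with siDDX24-1 and 2193 with siControl in SiHa, and 24 with siDDX24-1 and 75 with siControl in MS751. RASIP1, a RAS-interacting protein gene (0.63), the glycosyltransferase gene B3GNT9 (0.65), the small heat shock protein gene HSPB1 (0.70) and the stress-responsive NDRG1 (0.72) followed. All 5 had many more counts in SiHa. Their log2 folds lay between -0.63 and -0.061 in SiHa and between -1.74 and -1.25 in MS751. The search picked them for this shape, so the match is a description alone. Of the genes beside SFN on chromosome 1, PIGV was at -0.55 in MS751 (interval -0.86 to -0.24). ZDHHC18 was at -0.12, GPN2 at 0.050 and GPATCH3 at 0.017 there, all 3 with intervals that spanned 0.

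Of 9 genes known to regulate SFN or its protein, 7 were listed for SiHa and 8 for MS751. Past 2-fold were the DNA methyltransferase gene DNMT3A in SiHa, with 94 counts with siDDX24-1 and 266 with siControl (log2 fold -1.61), and the transcription factor gene TP73 in MS751, with 204 and 416 counts (log2 fold -1.17). Of all genes, 3.05% were at least 2-fold lower in SiHa and 8.55% in MS751. TP73 was at -0.77 with the GC trend removed. The list median was -0.23 in SiHa and 0.18 in MS751. TRIM25, a ubiquitin ligase for the SFN protein, was at -0.40 and -0.14.

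Stratified epithelium genes were sparsely listed, 11 of 23 for SiHa and 5 for MS751. In SiHa 4 of the 11 were at least 2-fold lower and none higher (median -0.66), against 3.05% and 1.46% of all genes. They were the plakophilin gene PKP1 (log2 fold -2.30), the keratin genes KRT16 (-1.32) and KRT15 (-1.09), and S100A14 (-1.30). KRT15 was under 2-fold with the GC trend removed, at -0.95. Each of the 4 had 377 counts or fewer in both SiHa libraries. Of the 11 genes 2 were above 0, DSP at 0.18 and the abundant PERP at 0.78. PERP had 13348 counts with siDDX24-1 and 7125 with siControl. The summed level of the list in SiHa was 2041 CPM with siDDX24-1 and 1946 with siControl. In MS751 S100A2 alone passed, with 15 counts with siDDX24-1 and 41 with siControl (log2 fold -1.53, list median -0.26).

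Genes of the G2 checkpoint, where 14-3-3 proteins bind CDC25 phosphatases, had list medians of 0.15 in SiHa and 0.26 in MS751 over 16 genes in each. None of them was past 2-fold in SiHa. In MS751 CDC25A, the phosphatase that drives entry into S phase and mitosis, had 758 counts with siDDX24-1 and 192 with siControl (log2 fold 1.83). The stress gene GADD45A was at -1.07 there, with 442 and 841 counts. Each was 1 of 16, against 3.74% of all genes higher and 8.55% lower.

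Client genes in growth, survival and metabolic signalling, had no member past 2-fold among 21 in SiHa and 20 in MS751. The death factor gene BAD was at 0.60 in MS751, and at 1.25, past 2-fold, with the GC trend removed. In SiHa BAD had the opposite sign, at -0.55 (interval -0.69 to -0.41), and at -0.19 with the GC trend removed. The medians of the list were 0.061 and -0.013. Of 18 clients in transcription, Hippo signalling and polarity, MDM4 alone was past 2-fold higher, in both lines. Of all genes, 1.46% were at least 2-fold higher in SiHa and 3.74% in MS751. Among the 11112 genes listed for both lines, 27 were so in both. MDM4 had 376 counts with siDDX24-1 and 46 with siControl in SiHa (log2 fold 2.88), and 577 with siDDX24-1 and 150 with siControl in MS751 (log2 fold 1.79). In MS751 3 of these clients were past 2-fold lower. They were the glucose-responsive transcription factor gene MLXIPL (-2.37), the deacetylase gene HDAC5 (-1.37) and the cyclin-dependent kinase inhibitor gene CDKN1B. CDKN1B had 971 counts with siDDX24-1 and 1763 with siControl, and was barely past the threshold (-1.003, interval -1.12 to -0.89). The 3 of 18 stand against 8.55% of all MS751 genes at least 2-fold lower. HDAC5 was at -0.97 with the GC trend removed. The medians of this list were -0.14 in SiHa and -0.0055 in MS751.

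Kinases that phosphorylate 14-3-3 binding sites had no member past 2-fold among 26 in SiHa (median 0.031). Of 28 in MS751, 3 were past 2-fold lower (median -0.077). These were SIK1, with 167 counts with siDDX24-1 and 620 with siControl (log2 fold -2.03), and the survival kinases PIM3 (-1.60) and PIM1 (-1.15). The 3 of 28 stand against 8.55% of all MS751 genes. With the GC trend removed PIM3 was at -0.91 and PIM1 at -0.93, which left SIK1 alone past 2-fold, at -1.75.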

How the data were processed

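The authors deposited whole-number read counts per Ensembl gene, 1 table per line, not normalized. The submitters' processing notes name GRCh38.p12 and the tools StringTie 1.3.4d, HISAT2 2.0.4 and fastp 0.23.2. No source used here gives their roles, the counter or its use of strand. Every listed gene exceeded 1 CPM in both libraries of its line.

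Identical copies of rows (70 in SiHa, 73 in MS751) were dropped. All identifiers matched GENCODE release 29, and the highest of genes sharing a symbol was kept. Folds within a line are differences of log2 CPM (edgeR 4.0.16 in R 4.3.3, TMM factors, prior count of 1, mean of at least 1 CPM). Intervals at 95% cover counting error only. Between lines, edgeR's quasi-likelihood test was used at an adjusted p of 0.05. Its SE is the absolute log2 difference over the square root of F. The fit was also run on simulated counts in which the siRNAs differed in neither line. That run therefore does not vouch for the calls made here. GC trends used mgcv 1.9.3. Coding sequences were aligned with Biopython 1.88.

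The family and the gene lists were chosen with earlier results of these data known. Named were all members, DDX24, the 5 nearest profiles to SFN and YWHAB, and at most 4 genes per list and line past 2-fold. TRIM25, BAD, PERP, DSP, the markers and the neighbours were named after their values were seen. Alternatives included DESeq2 1.42.0 and limma 3.58.1.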

Additional observations from a re-analysis of the deposited data

Results flagged for a closer look

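YWHAB was singled out because its 1 pair of libraries in each line differed in opposite directions, with a log2 fold of -1.24 in SiHa and 1.13 in MS751 for siDDX24-1 over siControl. Whether the siDDX24-1 fold of YWHAB differs between the lines was not tested, since the family was chosen on it and each group held 1 library.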

How the results depend on the processing

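YWHAB stayed between -1.31 and -1.23 in SiHa and between 0.99 (GC trend removed, under 2-fold) and 1.13 in MS751 under every other scaling, prior count, filter and the GC correction, and SFN in MS751 between -2.21 and -1.71. In SiHa, library totals put YWHAG at -0.039, YWHAQ at -0.023 and YWHAZ at -0.040. With the GC trend removed they were at -0.010, -0.031 and -0.061, and SFN at 0.095. The family sum in SiHa was -0.090 from counts with no length, -0.093 with library totals, 0.00057 without SFN and 0.034 without YWHAB. In MS751 it was 0.38 without SFN and 0.32 without YWHAB. Between lines YWHAB was at -0.72 in the siDDX24-1 libraries alone. DESeq2, limma-trend, other scalings, filters and a fit with no siRNA term kept the SFN and YWHAZ calls (adjusted p up to 0.0072 and 0.046) and added no member. All of these settings reuse the SFN count that was used to choose the family, so the kept SFN call is not independent of that choice. Leaving out 1 library with no siRNA term, chosen after the data were seen as was the sum without YWHAB, gave 460 to 1830 genes higher in SiHa and 433 to 1919 lower. The lone library of a line is then assumed to vary like the pair of the other. YWHAB was then at -0.28 to 1.11 and YWHAE at -0.015 to 0.30. The cause of these shifts was not tested. Depth limits SFN in MS751 most, at 40 and 168 counts.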
